A study of Mus musculus with 5 samples.

Results

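The BTG/TOB antiproliferative genes Btg1, Btg2, Btg3, Tob1 and Tob2 and the atypical cyclin gene Ccng2 were described over 5 arrays of 32D cells, each carrying a different FLT3-ITD construct. Members were taken as the 15 probe sets that the platform annotation gives to these 6 genes, out of 45101 probe sets and 18193 genes named by at least 1 probe set of their own. FLT3 is a cytokine receptor with kinase activity on early blood cells, and internal tandem duplications (ITD) leave it active without its ligand. 32D is a mouse myeloid progenitor line that normally needs interleukin-3 to grow. The groups were 32D cells stably transduced by retrovirus with FLT3 ITD613, ITD78, ITD598, ITD602 or ITD611, with 1 array each. Per the labels all 5 lines had been starved for 3 h and then given a tyrosine kinase inhibitor (TKI) for 1 h, so no array shows cells without either step. The labels name neither the inhibitor nor the meaning of the construct numbers, and do not say whether a line is 1 clone, and no array of cells without a construct was analysed here. With 1 array per construct there is no replicate error, no difference was tested, and differences are described by their size. The 6 genes were chosen by their log2 values on these same arrays, after Btg2 had stood out on ITD613, so their values are a description.

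BTG and TOB proteins share a conserved domain at their N-terminal end, which binds the CNOT7 and CNOT8 deadenylases of the CCR4-NOT complex. Through this contact they speed up the removal of poly(A) tails from messenger RNA, and forced expression of most family members slows cell growth. BTG2 is also known as an early response gene and as a target of p53, and BTG1 and Ccng2 as targets of FOXO factors, which are active when growth factor signalling is low. Cyclin G2, the Ccng2 product, is an unconventional cyclin that is high in resting cells and binds the phosphatase PP2A.

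Btg2 and Ccng2 were higher on the ITD613 array than on the other 4, and both had their second highest value on ITD78. On the probe set of each with the highest mean, Tob1 and Tob2 stayed within a range of 0.45 and 0.29 (log2) over the 5 arrays. Another Tob2 probe set, 1417309_at, ranged over 0.73. Btg1 and Btg3 had low values on every array. Of the 6 genes, 5 had a probe set of their own and 4 reached the expression filter, a highest value of at least 2.75, which kept 9621 of the 18193 genes. Of those 4, 2 (Btg2 and Ccng2) were at least 2-fold higher on ITD613 than on every other array, against 1.31% of the 9621 genes, and 0 were at least 2-fold lower, against 0.925%. On ITD78 0 of the 4 were set apart 2-fold in either direction, against 0.052% of genes higher and 0.052% lower. The genes were chosen with these differences known, so nothing is read from setting the counts side by side.

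**Figure D1:**
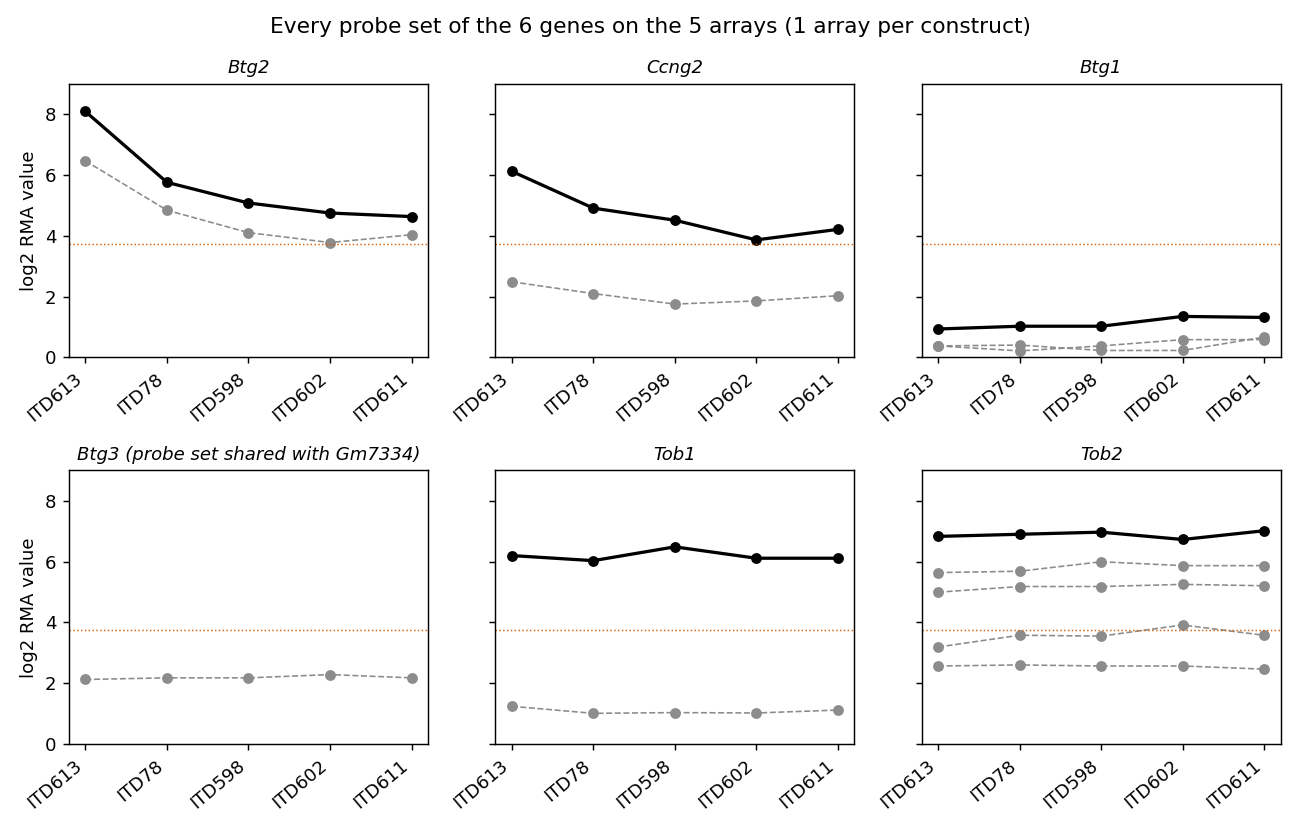
Log2 RMA values (vertical axes) of all 15 probe sets on the 5 arrays (horizontal axes), with 1 panel per gene, a solid black line for the probe set that stands for the gene, dashed grey lines for the others (lines only join the points of 1 probe set), and a dotted line at 3.74, below which many probe sets of an array share a value. Both Btg2 probe sets and the Ccng2 probe set in black peak on ITD613. The black Tob1 and Tob2 lines are nearly level, while the grey Tob2 line of 1417309_at runs from 3.19 on ITD613 to 3.92 on ITD602. All points of Btg1 and Btg3 lie under the dotted line.

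Btg2 encodes the family member also called TIS21 and PC3. Its probe set 1416250_at had a log2 RMA value of 8.08 on ITD613, against 5.76 on ITD78, 5.08 on ITD598, 4.75 on ITD602 and 4.63 on ITD611. The ITD613 value lay above all others, ITD78 stood between it and the rest, and ITD602 and ITD611 were almost level. ITD613 was 3.03 (log2; 8.18-fold) above the mean of the other 4 constructs, which was 5.05 ± 0.51 (SD over 4 constructs, not replicates), and 5.03-fold above ITD78. The distance from the next array, 2.33, was the 5th largest among the 9621 genes for ITD613. From ITD613 to ITD611 the difference was 11.0-fold, and the range of Btg2 was the 30th widest of all genes.

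The second Btg2 probe set, 1448272_at, gave 6.46 on ITD613, against 4.84 on ITD78, 4.10 on ITD598, 3.78 on ITD602 and 4.03 on ITD611. The order of the first 3 arrays was the same as on the other probe set, and the lowest array was ITD602 in place of ITD611. On this probe set ITD613 was 1.62 (log2) above ITD78 and 2.27 above the mean of the other 4. None of the 10 Btg2 values fell below 3.74, the highest value that at least 100 probe sets of an array share. Equal values also occur above it: the 4.10 of 1448272_at on ITD598 was also the ITD598 value of the gene Stx2.

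How large the steps between neighbouring arrays were can be set against all genes of the same pair of arrays. For ITD613 and ITD78, 22 of the 9621 genes (0.229%), Btg2 among them, differed at least as much as Btg2. Between ITD78 and ITD598 the Btg2 difference was 0.68, which 3.53% of genes reached, and between ITD598 and ITD602 it was 0.33, which 13.4% reached. The 0.12 between ITD602 and ITD611 was smaller than the SD of the differences over genes for that pair (0.22), and 52.0% of genes differed by at least as much. That SD is a spread over genes and not the error of a Btg2 value, which 1 array per construct leaves unknown. The 2 Btg2 probe sets put ITD602 and ITD611 in opposite orders, so no order is read between them.

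Ccng2 followed a similar order with a smaller spread. Its probe set 1416488_at had a log2 value of 6.12 on ITD613, against 4.91 on ITD78, 4.51 on ITD598, 3.86 on ITD602 and 4.21 on ITD611. ITD613 was again above all other arrays, and ITD602 was lowest. The ITD613 value was 1.75 (log2; 3.35-fold) above the mean of the other 4, which was 4.37 ± 0.44 (SD over 4 constructs), and 2.31-fold above ITD78. This distance from the nearest array, 1.21, ranked 59th among the 9621 genes. The range of 2.26 between ITD613 and ITD602 (4.77-fold) was the 122nd widest.

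The second Ccng2 probe set, 1448364_at, read 2.49 on ITD613, against 2.10 on ITD78, 1.75 on ITD598, 1.86 on ITD602 and 2.03 on ITD611. It was highest on ITD613 as well, by 0.39, but all 5 values lie in the low range below 3.74 and none reached the filter, so they say little about size. With the mean of both probe sets Ccng2 is no longer 2-fold above every other array, although it stays 1.15 (log2) above the mean of the other 4. The array titles carry a date-like string that for ITD602 is not that of the other 4. The labels do not say what it marks. For any ITD602 value, the lowest Ccng2 value included, it cannot be told apart from the construct.

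Among neighbouring arrays, the step of Ccng2 between ITD613 and ITD78 was reached by 165 genes (1.71%). The steps further down were smaller: 0.40 between ITD78 and ITD598 (reached by 11.6% of genes), 0.30 between ITD598 and ITD611 (6.82%), and 0.35 by which ITD611 exceeded ITD602 (9.83%).

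The pair also differed among the arrays other than ITD613. With that array left out, Btg2 still ranged over 1.13 (log2), with ITD78 2.18-fold above ITD611, and Ccng2 over 1.04, with ITD78 2.06-fold above ITD602. Tob1 and Tob2 ranged over 0.45 and 0.29 on the same 4 arrays. These 2 of 4 members with a range of at least 2-fold stand beside 3.06% of the 9621 genes over the same arrays, and beside 10.4% over all 5. The sequence ITD613 first and ITD78 second, which Btg2 and Ccng2 share, was found in 18.6% of all genes and in 38% of the 999 genes that ranged at least 2-fold, so many varying genes have it.

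**Figure D2:**
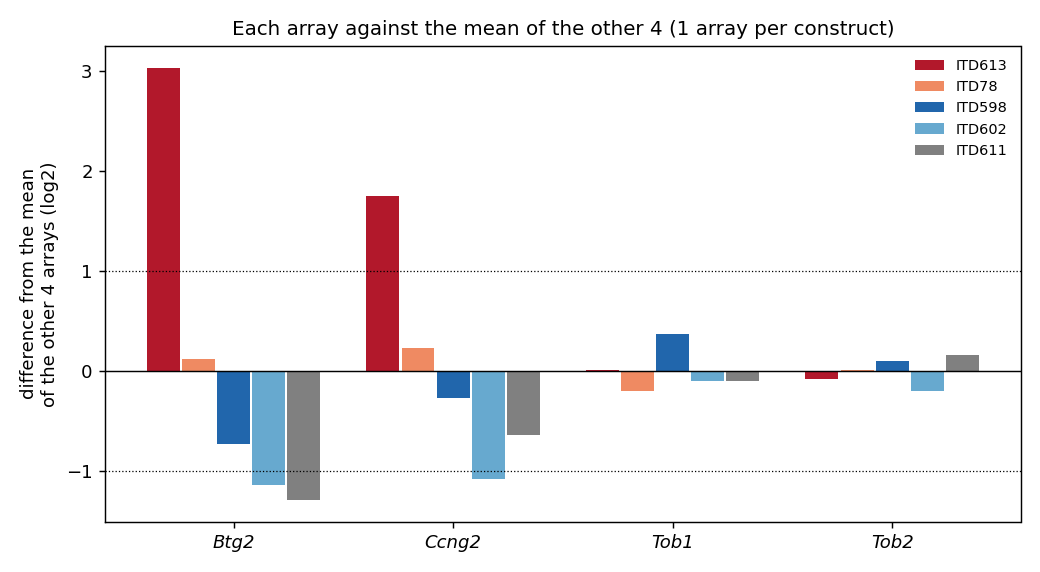
Difference of each array from the mean of the other 4 (vertical axis, log2) for the 4 genes that reached the filter, with 1 bar per array coloured by construct and dotted lines at a 2-fold difference. Btg2 and Ccng2 have their tall bars on ITD613 (3.03 and 1.75) and negative bars on ITD598, ITD602 and ITD611, whose means include ITD613 (without that array the ITD598 bars would be 0.03 and 0.18), and no bar of Tob1 or Tob2 exceeds 0.37.

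The 250 bases before the RefSeq start sites of Btg2, Ccng2 and Btg1 (assembly GRCm38.p6, each on the strand of its gene, 5′ to 3′) are shown because Btg2 and Ccng2 were the members high on ITD613 and because Btg1 shares the FOXO link named above for Ccng2. Capitals mark matches to any of 6 short motifs searched on both strands: FOXO core (GTAAACA), CRE (TGACGTCA), E-box (CACGTG), STAT core (TTCNNNGAA), GATA core (AGATAA) and ETS core (CCGGAA). The Btg2 stretch is chr1:134079156-134079405 on the minus strand, that of Ccng2 is chr5:93267323-93267572 on the plus strand, and that of Btg1 is chr10:96616751-96617000 on the plus strand.
Btg2: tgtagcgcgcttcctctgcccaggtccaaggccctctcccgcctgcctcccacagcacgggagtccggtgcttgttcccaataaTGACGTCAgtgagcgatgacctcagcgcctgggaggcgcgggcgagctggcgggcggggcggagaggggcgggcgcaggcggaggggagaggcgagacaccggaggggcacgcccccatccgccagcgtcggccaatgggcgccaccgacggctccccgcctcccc
Ccng2: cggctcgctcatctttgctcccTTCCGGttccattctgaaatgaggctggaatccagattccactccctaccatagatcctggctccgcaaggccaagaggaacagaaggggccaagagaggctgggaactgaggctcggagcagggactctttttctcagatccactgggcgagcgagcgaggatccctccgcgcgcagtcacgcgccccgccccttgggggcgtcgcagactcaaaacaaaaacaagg
Btg1: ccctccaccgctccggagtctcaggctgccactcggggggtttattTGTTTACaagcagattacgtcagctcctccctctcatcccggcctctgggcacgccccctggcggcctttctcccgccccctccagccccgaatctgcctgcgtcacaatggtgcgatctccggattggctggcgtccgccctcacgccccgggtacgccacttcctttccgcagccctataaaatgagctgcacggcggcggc
The Btg2 promoter holds a full CRE, the element bound by CREB and ATF factors, starting 166 bases before the start site. Over the windows of 300 bases that RefSeq gave for 32851 start sites, 1.79% hold this motif. The Ccng2 promoter holds an ETS core on the minus strand, a motif in 14.9% of the windows. The Btg1 promoter holds a FOXO core on the minus strand, a motif in 3.65%. No motif of the 6 occurs in both the Btg2 and the Ccng2 window, and no 2 of the matches overlap. The windows of Tob1 and Tob2 and the first of 2 windows of Btg3 hold none of the 6, and the second Btg3 window holds 1 ETS core just after the start site. The remaining motifs are in 7.15% (E-box), 8.30% (STAT core) and 11.2% (GATA core) of all windows and in no window of the 6 genes. A match is only a match of letters, and nothing about a factor follows from it or from its absence.

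Btg1, the closest relative of Btg2 in the family, could not be followed on these arrays. Its 3 probe sets read between 0.93 and 1.35 (1442018_at), 0.21 and 0.58 (1437455_a_at) and 0.23 and 0.67 (1426083_a_at) over the 5 arrays. None reached the filter, and the mean of 1426083_a_at lay above only 0.845% of the means of all probe sets. These values are in the range that many probe sets of an array share, so the small differences among them (ITD613 lowest at 0.93 on 1442018_at, ITD602 highest at 1.35) give no order. Btg3 had a single probe set, 1449007_at, which the annotation also gives to the pseudogene Gm7334, so its signal cannot be assigned to either. It read 2.13 on ITD613, against 2.18 on ITD78, 2.18 on ITD598, 2.29 on ITD602 and 2.18 on ITD611, a range of 0.16 below the filter.

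Tob1 and Tob2, the larger family members with long C-terminal tails that bind the poly(A)-binding protein, differed by less than 2-fold between constructs. The probe set that stands for Tob1, 1423176_at, had a log2 value of 6.20 on ITD613, against 6.03 on ITD78, 6.49 on ITD598, 6.11 on ITD602 and 6.11 on ITD611. The highest array was ITD598, 0.37 above the mean of the other 4, and the ITD613 value was 0.01 from that of the others. The distance of ITD598 above the next array, 0.29, was the 37th largest of the 9621 genes for ITD598, and the difference of 0.37 between ITD598 and ITD611 was reached by 3.37% of genes. Equal values, as on ITD602 and ITD611, are common in this table: 57.5% of probe sets had the same value on at least 2 arrays. The second Tob1 probe set, 1440844_at, read 1.01 to 1.24, below the filter.

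Tob2 had 5 probe sets, of which 4 reached the filter value. The one that stands for the gene, 1448667_x_at, read 6.83 on ITD613, against 6.90 on ITD78, 6.97 on ITD598, 6.73 on ITD602 and 7.02 on ITD611. The ending of its name marks probes that can bind other transcripts, and the next one, 1448666_s_at, can also bind more than 1 transcript. On that second probe set ITD613 was the lowest array at 5.64, against 5.68 on ITD78, 5.995 on ITD598, 5.87 on ITD602 and 5.87 on ITD611. ITD613 was lowest on 1417310_at too, at 5.00 against 5.18 to 5.25, and on 1417309_at, at 3.19 against 3.55 to 3.92, partly in the low range. The Tob2 difference of ITD613 from the mean of the other 4 thus ran from -0.46 to -0.07 over the 4 probe sets that reached the filter, none of it 2-fold. The fifth probe set, 1431776_at, ranged over 0.14 below the filter.

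Over the 4 genes that reached the filter, the median difference of ITD613 from the mean of the remaining 4 was 0.88, beside 0.01 over all 9621 genes. It lies midway between the high pair and the level pair and describes neither. The corresponding medians were 0.07 on ITD78, -0.08 on ITD598, -0.64 on ITD602 and -0.37 on ITD611, with 0 of the 4 genes above the mean of the others on ITD602, against 55.4% of all genes. Since the ITD613 value is part of the mean against which the other arrays are set, the negative medians contain it. On ITD602 the construct also cannot be told apart from whatever the differing date-like string of its array title marks.

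The genes whose pattern was most like that of Btg2 were found by the root mean square difference between values centred on each gene's own mean over the 5 arrays. The nearest 5 of 9617 genes were Tspo2 (0.11), an erythroid membrane protein gene, a RIKEN clone gene (0.16), Mfsd2b (0.20), a sphingosine-1-phosphate exporter gene of red cells and platelets, the syntaxin gene Stx2 (0.22) and Narf (0.23). Tspo2 read 5.06 on ITD613, against 2.98 on ITD78, 2.37 on ITD598, 2.02 on ITD602 and 1.78 on ITD611, so that its lower values lie in the range of shared values. On the arrays other than ITD613, Mfsd2b (2.19 to 3.24) and the RIKEN clone gene (1.52 to 2.74) lie in that range too. Narf read 7.24 on ITD613, against 5.41 on ITD78 and 4.41 on each of ITD598, ITD602 and ITD611.

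For Ccng2 the nearest 5 were Tesc (0.08), which encodes the calcium-binding protein tescalcin, Plxdc1 (0.09), the inositol trisphosphate receptor gene Itpr2 (0.11), Gata1 (0.12), the erythroid and megakaryocyte transcription factor gene, and Pgm2l1 (0.14). On the arrays other than ITD613, Plxdc1 (2.36 to 3.58) and Itpr2 (2.60 to 3.38) lie in the low range below 3.74. Tesc lies there on ITD598 (3.48), ITD602 (2.97) and ITD611 (3.13). Gata1 read 8.14 on ITD613, against 7.01 on ITD78, 6.29 on ITD598, 5.84 on ITD602 and 6.05 on ITD611. Each step of Gata1 runs the same way as in Ccng2, and the range was 2.30, close to the 2.26 of Ccng2. Between the members, Ccng2 was the 40th nearest gene to Btg2, and Btg2 was the 816th nearest to Ccng2 (0.54 both ways). With 5 arrays of 1 sample each, likeness of pattern is a description and says nothing of shared control.

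**Figure D3:**
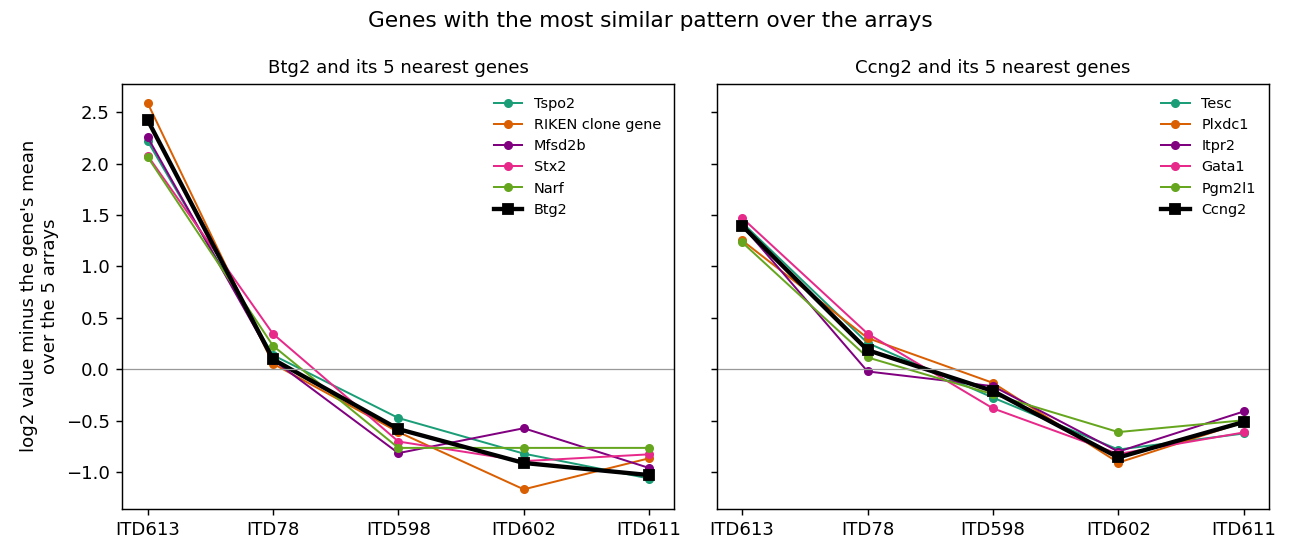
Log2 values minus each gene's mean over the 5 arrays (vertical axis) by construct (horizontal axis), for Btg2 (left) and Ccng2 (right) as thick black lines and for the 5 genes nearest to each as coloured lines. All 5 nearest genes of each member peak on ITD613, with root mean square differences of 0.11 to 0.23 from Btg2 and 0.08 to 0.14 from Ccng2.

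Of the marker lists of other lineages, the summed level of the erythroid one was highest on ITD613 and second on ITD78, as were Btg2 and Ccng2. Of 8 erythroid markers, 6 had a probe set of their own, and 4 reached the filter. Their summed level on the linear scale was 2322 on ITD613, against 1282 on ITD78, 977 on ITD598, 907 on ITD602 and 963 on ITD611. Klf1, a transcription factor gene of red cell development, read 10.01 on ITD613, against 8.44 on ITD78, 7.36 on ITD598, 6.68 on ITD602 and 7.08 on ITD611. The transferrin receptor gene Tfrc read 9.96 on ITD613, against 9.63 on ITD78, 9.49 on ITD598, 9.52 on ITD602 and 9.55 on ITD611. The sum rests almost wholly on Klf1, Tfrc and Gata1, each highest on ITD613 and second on ITD78. The haem synthesis gene Alas2 (1.33 to 1.74) was highest on ITD611. Alas2 and the alpha globin gene Hba-a1 (1.28 on ITD613, 1.02 on the others) stayed below the filter on all arrays. The erythropoietin receptor gene Epor read 3.11 on ITD613, against 3.24 on ITD78, ITD598 and ITD602, and 3.08 on ITD611. The 6 macrophage markers summed to 28.5 on ITD613, against 41.2 on ITD78, 154 on ITD598, 229 on ITD602 and 187 on ITD611, which is the opposite direction. The 7 mast cell and basophil markers summed to 105 on ITD613, against 36.4 on ITD78, 83.3 on ITD598, 79.2 on ITD602 and 63.7 on ITD611. The 5 neutrophil markers with a probe set summed to 195 on ITD613, against 38.1 on ITD78, 479 on ITD598, 242 on ITD602 and 57.0 on ITD611. In both of these sums ITD78 was lowest, unlike in Btg2 and Ccng2, but the mast cell and basophil markers differed among themselves. Mcpt8 read 2.90 on ITD78, against 5.36 to 5.94 on the others. Cpa3 was highest on ITD613 (4.56) and second on ITD78 (3.66), as were Btg2 and Ccng2. Fcer1a read 3.96 on ITD613, against 0.67 to 0.72 on the others, and Hdc 2.74 to 2.98 over the arrays. The part of any lineage in the Btg2 and Ccng2 values was not tested, and in bulk RNA a larger share of some cells cannot be told apart from more RNA per cell.

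The label of the cells was set against 10 markers of myeloid progenitors. Of these, 6 reached the filter, among them the neutrophil protease genes Ctsg (6.24 on ITD613, against 7.42 to 9.17 on the others) and Prtn3 (5.55, against 5.83 to 7.45), which were lowest on ITD613, as were Spi1 and Ptprc. Myb, a progenitor transcription factor gene, was highest there (9.91, against 8.91 to 9.34), and Mpo, the myeloperoxidase gene, read 5.18 on ITD613, against 4.52 on ITD78, 6.55 on ITD598, 6.21 on ITD602 and 5.00 on ITD611. The progenitor genes Kit (0.66 to 0.92), Cd34 (0.64 to 0.67) and Cebpa (1.72 to 1.91) had low values on all arrays. Of 6 fibroblast markers 0 reached the filter, and of 5 lymphoid markers with a probe set 1 did.

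The genes of the deadenylase machinery through which BTG/TOB proteins act ranged by less than 2-fold over the constructs. All 15 genes of CCR4-NOT and related deadenylation with a probe set reached the filter, and 0 ranged at least 2-fold, against 10.4% of all genes. On ITD613 8 lay above and 7 below the mean of the other 4, where 52.2% of all genes lay above. Their median was 0.08 beside 0.01 over all genes. Cnot7, the deadenylase subunit gene, read 8.51 on ITD613, against 8.65 on ITD78, 8.72 on ITD598, 8.68 on ITD602 and 8.65 on ITD611, and its paralogue Cnot8 ranged over 0.21. The widest range was that of Cnot10 (0.86), with 5.60 on ITD613 against 5.96 to 6.46 on the others.

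Values of other partners of these proteins followed the same scale of difference, with 1 exception. Prmt1, the arginine methyltransferase bound by BTG1 and BTG2, read 9.15 on ITD613, against 9.25 on ITD78, 9.62 on ITD598, 9.63 on ITD602 and 9.69 on ITD611. Of 6 such partner genes 4 reached the filter, and 1 of these ranged at least 2-fold, against 10.4% of all genes. It was Smad1 (2.05 on ITD613, 2.77 on ITD78, 1.35 on ITD598, 1.46 on ITD602 and 1.61 on ITD611), with all values within the low range. Among the PP2A subunit genes, 9 of 9 reached the filter and 0 ranged at least 2-fold, against 10.4% of all genes. On ITD613 2 of the 9 lay above the mean of the other 4, against 52.2% of all genes, with a median of -0.08. On ITD78 their median difference from the mean of the others was -0.10, beside -0.03 over all genes.

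Of the relatives of the members, Ccng1 and Ccni reached the filter, and 0 ranged at least 2-fold, against 10.4% of all genes. Ccng1, the cyclin G1 gene and a p53 target, read 9.30 on ITD613, against 8.66 on ITD78, 9.48 on ITD598, 9.19 on ITD602 and 9.38 on ITD611. Its lowest array was ITD78, where Ccng2 had its second highest value. Ccni, the cyclin I gene, was highest on ITD613 at 9.29, against 8.83 to 9.13, a range of 0.46. Btg4, the family member of oocytes and testis, read 1.46 to 1.76, below the filter.

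Of the factors and targets of the FOXO pathway, to which Btg1 and Ccng2 belong, 8 of 15 reached the filter and moved in no common direction. On ITD613 4 lay above the mean of the other 4 and 4 below, with a median of 0.17, where 52.2% of all genes lay above. At least 2-fold above that mean was 1 of the 8, against 3.18% of all genes. That gene was Gadd45a, a growth arrest and DNA damage gene, with 5.85 on ITD613, against 4.94 on ITD78, 4.83 on ITD598, 3.92 on ITD602 and 3.98 on ITD611. Klf6 was lower on ITD613 (3.63) and ITD78 (3.30) than on ITD598 (4.82), ITD602 (4.61) and ITD611 (4.48). Klf2, Pik3ip1, Irs2, Bcl6, Bcl2l11, Sesn3 and Foxo1 were below the filter on all arrays.

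Of p53 and its targets, to which Btg2 belongs, 13 of 16 had a probe set of their own and 11 reached the filter. On ITD613 6 of these lay above and 5 below the mean of the other 4, with a median of 0.09. Of all genes 52.2% lay above. Trp53inp1, a stress-induced p53 target gene, read 6.52 on ITD613, against 4.32 on ITD78, 4.69 on ITD598, 4.21 on ITD602 and 4.52 on ITD611. It was the single gene of the 11 at least 2-fold above every other array, against 1.31% of all genes, and its ITD78 value lay below those of ITD598 and ITD611. Pmaip1, the death gene also called Noxa, was lowest on ITD613 at 4.52, against 5.36 to 5.78 on the others. Cdkn1a, which encodes the kinase inhibitor p21, read 9.07 on ITD613, against 8.32 on ITD78, 8.58 on ITD598, 8.87 on ITD602 and 8.53 on ITD611.

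Immediate early genes, the class in which Btg2 was first described, also went both ways. Of 20, 13 reached the filter. On ITD613 7 of them lay above and 6 below the mean of the other 4, with a median of 0.08. Of all genes 52.2% lay above, and 10.4% ranged at least 2-fold. The 2 that ranged at least 2-fold were Dusp1, a MAP kinase phosphatase gene (7.50 on ITD613, 7.08 on ITD78, 6.78 on ITD598, 6.54 on ITD602 and 6.19 on ITD611), and Egr2 (1.98 on ITD613, against 2.92 to 3.13 on the others, within the low range). Dusp1 had the same order of arrays as the Btg2 probe set 1416250_at, over a range of 1.31 in place of 3.46. On the other Btg2 probe set ITD602 and ITD611 stood in the opposite order. Fos, Fosb, Fosl1, Jun, Atf3, Klf4 and Egr1 were below the filter on all arrays.

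Genes of G1 and quiescence had the highest median of the 8 lists on ITD613, 0.63, with 10 of 14 above the mean of the other 4, beside 52.2% of all genes. Cdkn2c, the gene of the CDK4 and CDK6 inhibitor p18, read 8.16 on ITD613, against 7.55 on ITD78, 7.01 on ITD598, 7.04 on ITD602 and 7.01 on ITD611. Rb1, the retinoblastoma gene, read 8.09 on ITD613, against 7.42 on ITD78, 7.34 on ITD598, 6.87 on ITD602 and 7.00 on ITD611. Genes that drive or mark division were among the higher ones as well: Ccnd3 (7.71 on ITD613, against 6.60 to 7.01), Ccne2 (8.24, against 7.17 to 7.77) and Mki67 (10.56, against 9.67 to 10.19). Ccnd2, the D cyclin gene, was lower, at 8.46 against 9.09 to 9.41. Of the 14, 1 gene (Cdkn2c) was 2-fold above the mean of the other 4, against 3.18% of all genes, and 0 were 2-fold above every other array, against 1.31%.

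**Figure D4:**
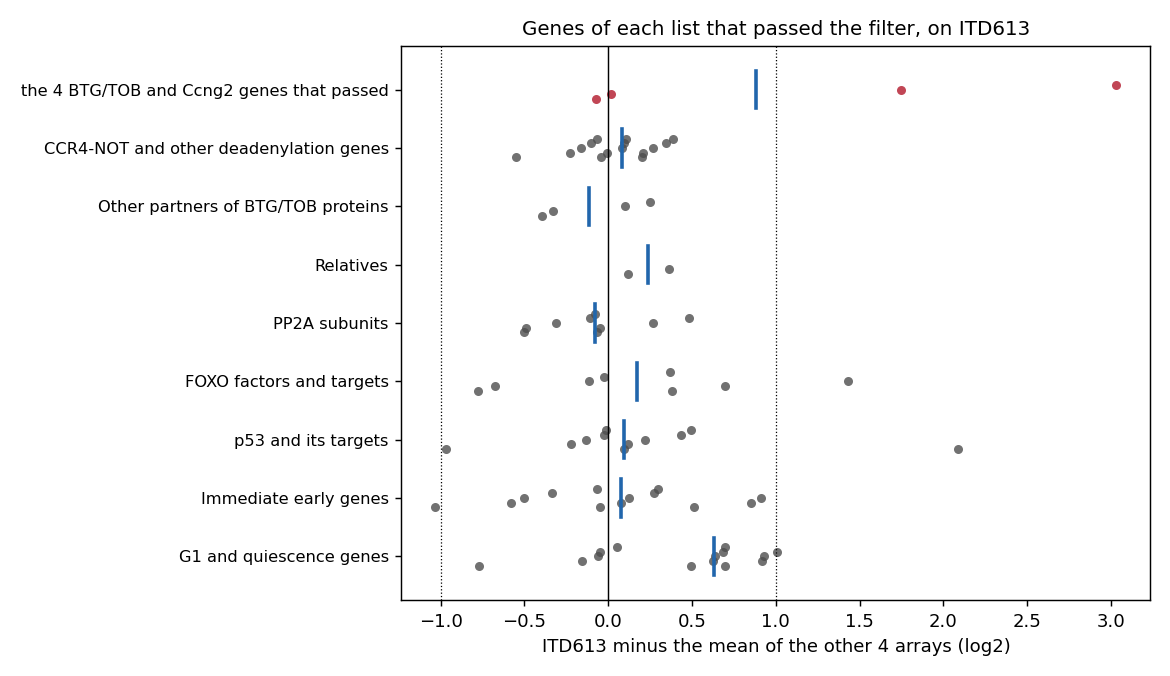
Difference of ITD613 from the mean of the other 4 arrays (horizontal axis, log2), with 1 point per gene that reached the filter, 1 row per gene list (Relatives are Ccng1 and Ccni), blue bars at the medians and dotted lines at a 2-fold difference. The medians of the lists run from -0.12 (other partners) to 0.63 (G1 and quiescence genes), and the points of Btg2 (3.03), Trp53inp1 (2.09), Ccng2 (1.75) and Gadd45a (1.43) lie furthest to the right.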

How the data were processed

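Total RNA of 5 FLT3-ITD lines of 32D cells was hybridised to Affymetrix mouse expression arrays, 1 per construct, named from the labels. Per the submitters' processing notes, the authors made the deposited log2 values with RMA, which corrects background, normalizes the arrays together and summarises the probes of each set. The sources used here give neither its version nor the chip definition. Base 2 was judged from the values, and the zero point is unknown, so differences were used. Array medians ran from 1.99 to 2.06. Between 23.7% and 30.3% of an array's probe sets had a value shared by at least 100 probe sets, at most 3.74, so lower values are imprecise.

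Probe sets with 1 gene symbol in the platform annotation (34945, controls left out) were used. The one with the highest mean stood for its gene, and genes were kept whose highest value reached the 60th percentile of all values (2.75). Names were checked against RefSeq gene IDs (GRCm38.p6, 0 renamed). With 1 array per group no test was made. A gene was called where an array lay at least 2-fold (log2 of 1) beyond every other array. The code was tested on simulated data. Named genes were all members with all probe sets, the 5 genes nearest in pattern to each member that ranged at least 2-fold, and up to 4 genes per list ranging at least 2-fold. Other genes of the lists were named after their values were seen. Members and lists were chosen with earlier results of these data known. Promoters came from RefSeq (GRCm38.p6). Protein sequences were not used here. Python 3.11.15, numpy 2.4.6 and pandas 2.3.3 were used.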

Additional observations from a re-analysis of the deposited data

How the results depend on the processing

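No paired analysis was possible because each construct had 1 array. The counts and the median were recomputed under 15 alternatives. Of the 78 recomputed values, 74 stayed close to those reported. Many of these are counts that were 0 and stayed 0, and the count of members ranging at least 2-fold stayed 2 throughout. The share that stayed close therefore says little about stability. All 4 that moved belong to the count of members higher on ITD613 or to the median on ITD613. Btg2 was among the genes counted as higher on ITD613 in each alternative for which that count was made. The 2 members 2-fold higher on ITD613 became 1 (Btg2) when the probe sets of a gene were averaged and 1 (Btg2) with a 3-fold threshold. For Ccng2 the mean takes in a probe set from the low range. The median of 0.88 was 0.63 with the mean of probe sets and 0.014 without the filter, where Btg1 is counted too. The difference of Btg2 on ITD613 from the mean of the other arrays ran from 2.65 (mean of probe sets) to 3.27 (without the ITD78 array), and that of Ccng2 from 1.15 to 1.92 under the same 2 alternatives. Of the differences of single genes from the mean of the other arrays, 39 moved by more than 0.18 (the SD of differences over genes for the closest pair of arrays) and 201 did not. Those of at least 2-fold kept their sign. The same 3 fell short of 2-fold without the ITD613 array and against the median of the other arrays. Without ITD613, Btg2 was at -0.41 on ITD602 and -0.56 on ITD611, and Ccng2 at -0.68 on ITD602. Against the median, Btg2 was at -0.67 on ITD602 and -0.79 on ITD611, and Ccng2 at -0.85 on ITD602. With the mean of probe sets Ccng2 on ITD602 fell short too, at -0.65. Without ITD613 the ITD598 differences turned positive, at 0.03 for Btg2 and 0.18 for Ccng2. Having 1 array per construct and shared values below 3.74 limit the precision.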

Other observations

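The 3 Btg1 probe sets had means above 0.845% (1426083_a_at), 2.00% (1437455_a_at) and 27.4% (1442018_at) of the means of all 45101 probe sets. Also below 3.74 throughout were Klf2, Fos, Jun and Egr1, whose highest values over the 5 arrays were 1.46, 1.67, 1.14 and 2.30. Myc, an immediate early gene and driver of growth, was highest on ITD613 at 8.34, against 7.47 on ITD78, 7.41 on ITD598, 7.37 on ITD602 and 7.44 on ITD611, next to the high Btg2 and Ccng2 values of that array. Txnip, a FOXO-linked gene that limits glucose uptake, was lowest there at 6.14, against 7.12 on ITD78, 6.92 on ITD598, 6.78 on ITD602 and 6.85 on ITD611. Both genes were named after their values were seen.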
